A study of Mus musculus with 8 samples.

Results

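Keratins are the intermediate filament proteins of epithelial cells, and the family was taken as every gene whose array symbol is Krt followed by digits and at most 1 letter, which leaves out the keratin-associated proteins (Krtap) and Krtdap. There were 52 such genes among the 19938 genes with a probe set of a single symbol, and each of the 52 had 1 probe set. Expression had been measured on 8 Affymetrix arrays of keratinocytes isolated from back skin of CD1 mice that were 8 weeks old. The mice were wild type or K14Snail, a line whose label places the transcription factor Snail under the name of the keratin 14 (K14) promoter, which is active in basal keratinocytes. Cells were separated with magnets and antibodies, either to CD34, which bulge cells of the hair follicle carry, or to Mts24, whose antigen sits on the Plet1 protein of upper follicle cells. The positive and the negative fraction of either marker were profiled in each genotype, which gave 8 groups with 1 array each. A CD34 array held RNA pooled from 11 mice and an Mts24 array from 9, male and female together, and the negative fractions served as the controls of the positive ones.

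Each keratin filament is built from pairs of a type I and a type II keratin, and the pairs change as a keratinocyte moves through the epidermis or the hair follicle. Basal cells make Krt5 with Krt14, and differentiating cells above them replace these with Krt1 and Krt10. The follicle adds Krt15 in bulge stem cells, Krt75 and Krt6a in the companion layer, Krt79 in the infundibulum and its own sets in the inner root sheath and hair shaft, while Krt6a, Krt6b, Krt16 and Krt17 are known as the keratins of wounded or hyperproliferative skin.

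Levels are given on the log2 scale of the deposited array values, on which a difference of 1 is 2-fold, and no level of 1 probe set is set against that of another. A gene was tested when at least 2 arrays reached 7.70, the median value of named genes, and 25 of the 52 keratins met this. Differences carry the standard error of limma, and adjusted p is limma's p after Benjamini-Hochberg adjustment over the 10720 genes tested, with 0.05 as the threshold. Genotype was compared over 4 pairs of arrays and each marker over 2 pairs, 1 per genotype. All 8 arrays were fitted together, so the error of a gene comes from how its genotype differences vary over the 4 fractions. Both markers share this error, and leaving out an array of 1 sort can change calls of the other. With 1 array of pooled RNA per group, the p-values do not measure the variation between mice. Snai1, the gene of Snail, spanned 10.84 to 11.04 over K14Snail and 7.86 to 8.16 over wild type arrays. Cd34 read 6.12 and 6.27 in the CD34 negative and 13.57 and 13.29 in the CD34 positive arrays of wild type and K14Snail, but 10.03 and 10.51 in the Mts24 negative arrays. Plet1 read 9.91 and 9.16 in the Mts24 negative and 12.88 and 12.64 in the Mts24 positive arrays. All 9 bulge markers tested were higher in both positive fractions, but Cd34 is among them and its rise with CD34 follows from the sort itself. In bulk arrays fewer cells of a type and less RNA per cell cannot be told apart.

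In CD34 positive against negative cells 8 of the 25 tested keratins passed, 6 higher (Krt75, Krt6a, Krt24, Krt15, Krt25, Krt71) and 2 lower (Krt1, Krt78), where 26.8% of all genes tested passed, 13.4% higher and 13.4% lower. In Mts24 positive against negative cells 9 passed, 8 higher (Krt6a, Krt75, Krt79, Krt16, Krt17, Krt15, Krt42, Krt7) and 1 lower (Krt78), against 26.3% of all genes, 12.8% higher and 13.5% lower. Krt25 and Krt71 met the filter only through the K14Snail positive arrays and Krt7 only through the Mts24 positive arrays. The filter thus favoured their higher values there. Between K14Snail and wild type 0 of the 25 passed limma's test, and 0.382% of all genes passed. The median difference over the 25 keratins was 0.05 for CD34, 0.32 for Mts24 and -0.02 for genotype, where the medians over all genes were -0.03, 0.02 and 0.03. Among all genes too, far more were called for either marker than for genotype.

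**Figure D1:**
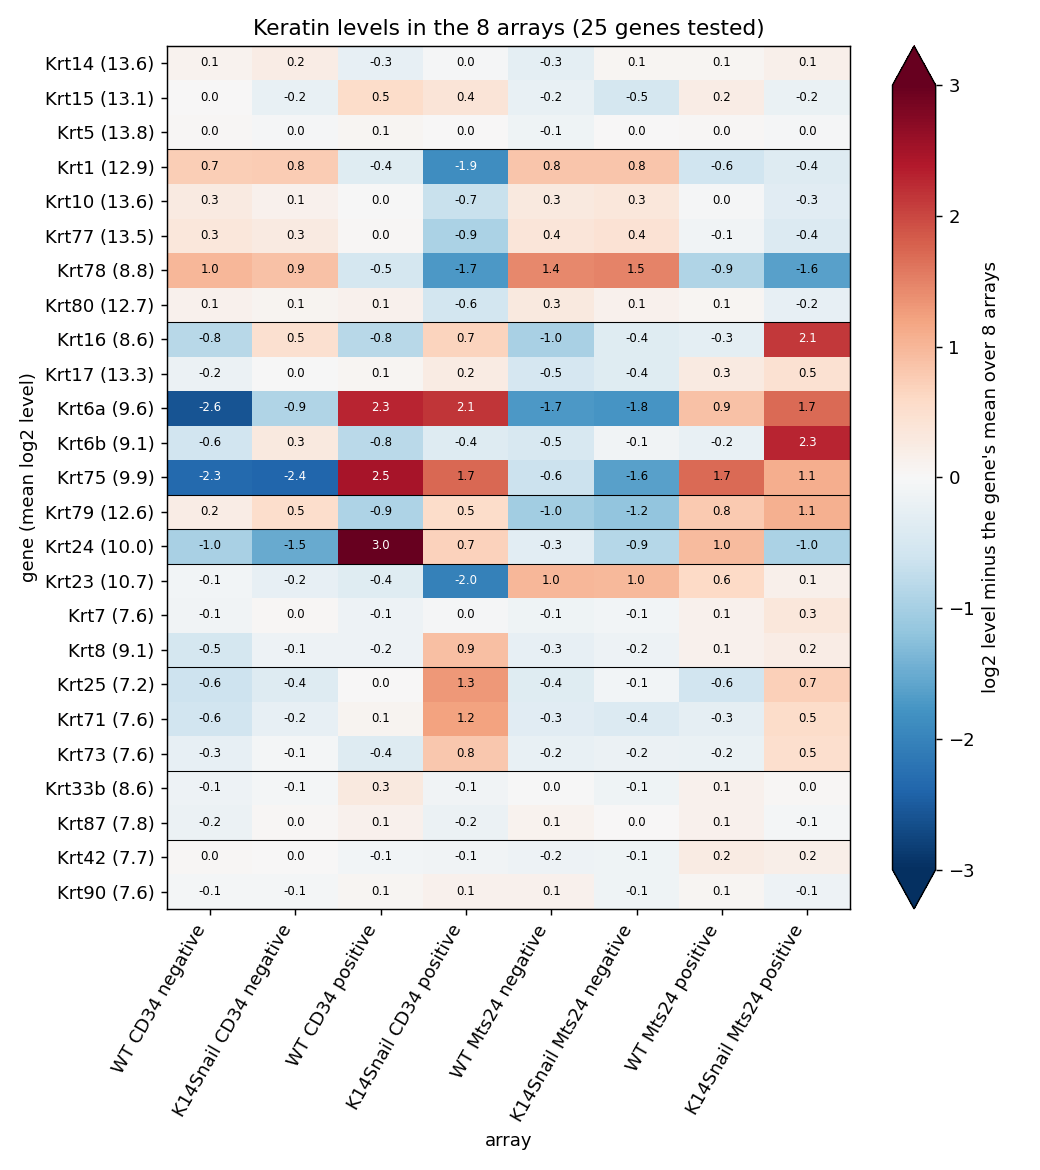
Log2 level of each of the 25 tested keratins (rows, mean level in brackets, lines between gene groups) in each of the 8 arrays (columns), as the difference from the gene's own mean. Krt6a and Krt75 are low in CD34 negative and high in CD34 positive arrays, Krt5 is nearly the same in all 8, and the K14Snail CD34 positive array has the lowest Krt1 (11.07) and Krt23 (8.65).

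**Figure D2:**
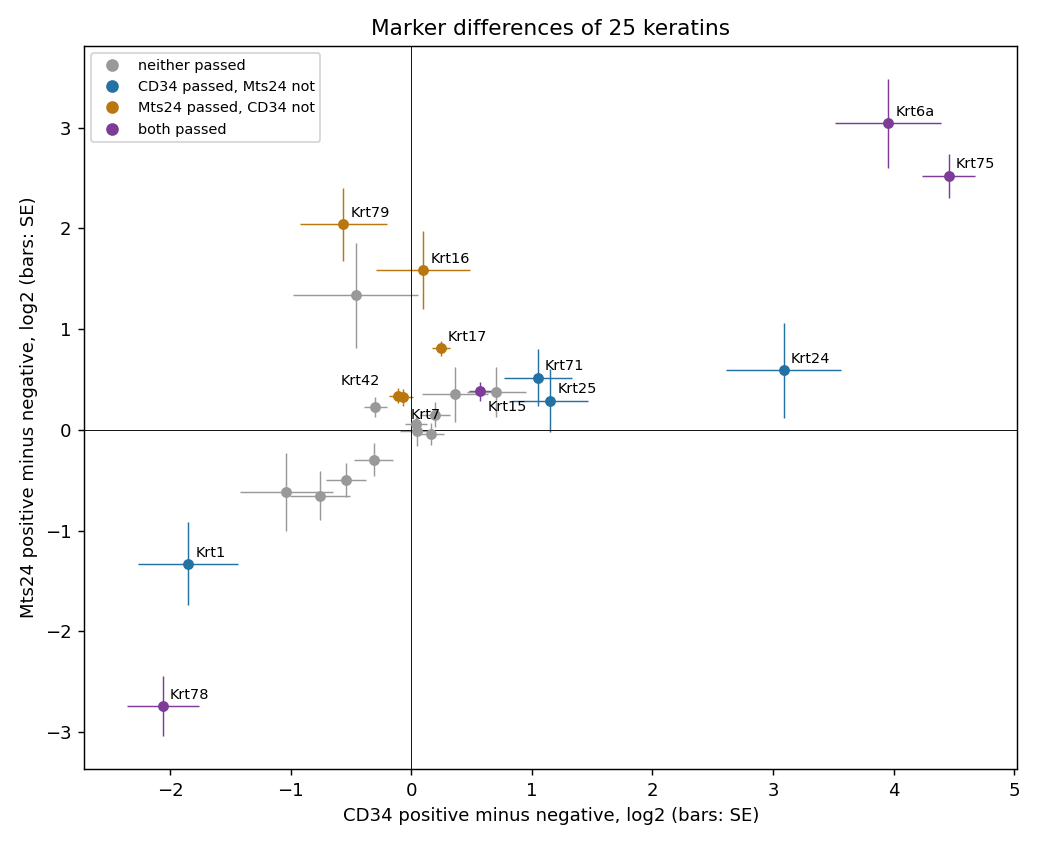
Positive minus negative log2 difference of each tested keratin for CD34 (horizontal) and Mts24 (vertical), with limma's standard error as bars. Krt6a and Krt75 lie high on both axes, Krt78 low on both, Krt79 is at 2.04 for Mts24 and -0.56 for CD34, and Krt24 at 3.09 for CD34 and 0.59 for Mts24.

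Among the keratins with a promoter entry in RefSeq (GRCm38.p6), the 4 below had the farthest sorting differences: Krt75 and Krt24 were raised with CD34, Krt79 with Mts24, and Krt78 was lowered in both positive fractions. Their 250 bases before the transcription start are shown 5′ to 3′ on the gene's strand, because Snail is known to bind the E-box CAGGTG. Capitals mark that motif on either strand, where it reads CAGGTG or CACCTG. Krt75 lies at chr15:101573905-101574154, Krt24 at chr11:99285263-99285512, Krt79 at chr15:101940325-101940574 and Krt78 at chr15:101954288-101954537, all on the minus strand.
Krt75: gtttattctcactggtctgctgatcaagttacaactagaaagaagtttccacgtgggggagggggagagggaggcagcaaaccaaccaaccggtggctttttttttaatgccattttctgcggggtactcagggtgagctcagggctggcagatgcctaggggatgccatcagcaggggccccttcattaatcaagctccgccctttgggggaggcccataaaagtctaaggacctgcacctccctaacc
Krt24: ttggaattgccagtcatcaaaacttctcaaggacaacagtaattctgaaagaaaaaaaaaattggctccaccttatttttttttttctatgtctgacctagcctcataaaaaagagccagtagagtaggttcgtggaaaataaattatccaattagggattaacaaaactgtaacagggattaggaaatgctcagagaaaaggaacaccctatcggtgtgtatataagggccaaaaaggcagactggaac
Krt79: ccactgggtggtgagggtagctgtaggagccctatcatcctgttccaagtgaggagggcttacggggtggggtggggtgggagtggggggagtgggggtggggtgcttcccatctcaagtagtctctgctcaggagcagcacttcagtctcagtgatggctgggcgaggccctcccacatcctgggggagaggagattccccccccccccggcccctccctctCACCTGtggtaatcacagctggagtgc
Krt78: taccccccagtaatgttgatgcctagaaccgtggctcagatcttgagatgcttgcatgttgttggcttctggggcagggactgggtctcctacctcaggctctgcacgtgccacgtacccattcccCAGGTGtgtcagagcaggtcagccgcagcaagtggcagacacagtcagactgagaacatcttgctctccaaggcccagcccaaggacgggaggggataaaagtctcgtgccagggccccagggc
Krt79 held 1 such E-box, 22 bases before the start, and Krt78 held 1, 119 bases before it, while these letters did not occur in the windows of Krt75 and Krt24. For 36 of the 52 keratins the table held 37 promoters, and 14 of these (37.8%) had the E-box on either strand, against 17.2% of all 32851 promoters of the same length. The TATA-box core TATAAA, likewise on either strand, stood in 17 of the 37 (45.9%) and in 12.4% of all. Of the tested keratins, 10 had a window with the E-box, and their K14Snail minus wild type differences ran from -0.57 to 0.55. Another 7 had a window without it and ran from -1.33 to 0.77, and 0 genes of either set passed the genotype test. A match of letters is a description of the window and no binding site.

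Of the companion layer and wound keratins, Krt75 and Krt6a held the highest CD34 differences of the family, while Krt17, Krt16 and Krt6b did not pass for CD34. Krt75, the type II keratin of the companion layer, read 7.60 and 7.56 in the CD34 negative arrays of wild type and K14Snail and 12.41 and 11.66 in the CD34 positive arrays. The Mts24 negative arrays read 9.30 and 8.31 and the Mts24 positive ones 11.63 and 11.03. All 4 positive arrays lay above all 4 negative ones, by more for CD34. Krt75 was 4.46 ± 0.22 higher with CD34 (21.9-fold, adjusted p = 0.00024) and 2.52 ± 0.22 higher with Mts24 (5.76-fold, adjusted p = 0.00218), each in 2 of 2 pairs. The CD34 difference exceeded the Mts24 difference by 1.93 ± 0.31 (adjusted p = 0.03). That comparison called 2 of the 25 keratins and 4.74% of all genes. Krt75 was 0.71 ± 0.22 higher in CD34 positive than in Mts24 positive cells, which did not pass (adjusted p = 0.0973). Its mean was 7.58 in the CD34 negative and 8.81 in the Mts24 negative arrays. The excess of 1.93 missed the threshold without either wild type CD34 array or any of the Mts24 arrays, where it lay between 1.56 and 2.20 with adjusted p from 0.0589 to 0.121, and with the pool as a fixed block (adjusted p = 0.0643).

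Krt6a, a type II keratin of the companion layer that wounding induces, had the highest Mts24 difference of the family. It read 7.04 and 8.72 in the CD34 negative arrays of wild type and K14Snail and 11.91 and 11.76 in the CD34 positive ones. The Mts24 negative arrays read 7.90 and 7.85 and the positive arrays 10.51 and 11.34. Again every positive array lay above every negative one. Krt6a was 3.95 ± 0.44 higher with CD34 (15.5-fold, adjusted p = 0.00237) and 3.04 ± 0.44 higher with Mts24 (8.25-fold, adjusted p = 0.00777). The Mts24 call was lost without the K14Snail Mts24 negative array (difference 2.63, adjusted p = 0.0606) or the K14Snail Mts24 positive array (2.88, adjusted p = 0.0605). The CD34 differences of Krt6a and Krt75 passed in all 8 processing alternatives and in all 12 fits that left out an array or a pool. Since the wild type CD34 negative level of Krt6a and those of Krt75 lie under 7.70, the size of these differences depends on the array background and is uncertain.

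Krt6b, a close paralogue of Krt6a whose probe signal may be shared with it, passed for neither marker. Krt6b read 8.54 and 9.40 in the CD34 negative arrays, 8.31 and 8.71 in the CD34 positive ones, 8.62 and 9.00 in the Mts24 negative ones and 8.89 and 11.40 in the Mts24 positive ones, wild type first. A single array, K14Snail Mts24 positive, stood above the other 7. The differences were -0.46 ± 0.52 for CD34 (adjusted p = 0.577) and 1.34 ± 0.52 for Mts24 (adjusted p = 0.114). Without the wild type Mts24 positive array the Mts24 difference was 2.32 (adjusted p = 0.0173), a value that rests on the K14Snail array alone on the positive side.

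Krt16, the type I wound keratin, was highest in that same K14Snail Mts24 positive array. Its levels in wild type and K14Snail were 7.79 and 9.11 in CD34 negative, 7.80 and 9.29 in CD34 positive, 7.65 and 8.25 in Mts24 negative and 8.33 and 10.75 in Mts24 positive cells. Every K14Snail array exceeded the wild type array of its fraction, and the 2 sets overlapped only where the wild type Mts24 positive array (8.33) exceeded the K14Snail Mts24 negative one (8.25). Krt16 rose with Mts24 by 1.59 ± 0.39 (3.01-fold, adjusted p = 0.0337) and differed with CD34 by 0.10 ± 0.39 (adjusted p = 0.889). The Mts24 rise was 0.68 in wild type and 2.50 in K14Snail cells. It missed the threshold without the K14Snail Mts24 positive array (0.95, adjusted p = 0.124), without the K14Snail Mts24 negative array (1.02, adjusted p = 0.169), without either CD34 negative array (1.59, adjusted p = 0.0619) and with the pool as a fixed block (adjusted p = 0.0707).

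Krt17, a type I keratin of the follicle's outer layers and of wounded skin, moved little but alike in both genotypes. Wild type and K14Snail levels were 13.10 and 13.25 in CD34 negative, 13.33 and 13.51 in CD34 positive, 12.76 and 12.89 in Mts24 negative and 13.54 and 13.73 in Mts24 positive cells. The Mts24 negative arrays were the lowest 2 and the Mts24 positive arrays the highest 2. Krt17 rose with Mts24 by 0.81 ± 0.08 (1.75-fold, adjusted p = 0.00264), and its CD34 difference of 0.24 ± 0.08 had an adjusted p of 0.0654. The CD34 difference was smaller than the Mts24 difference by 0.57 (-0.57 ± 0.11, adjusted p = 0.0477). This call missed the threshold without each of the 8 arrays in turn (differences from -0.59 to -0.54, adjusted p from 0.0688 to 0.215) and under 5 of the processing alternatives. Krt42, a type I gene next to Krt17 on chromosome 11, was 0.34 ± 0.08 higher with Mts24 (1.27-fold, adjusted p = 0.0281). Krt42 read 7.70 and 7.68 in CD34 negative, 7.60 and 7.57 in CD34 positive, 7.52 and 7.55 in Mts24 negative and 7.92 and 7.84 in Mts24 positive cells, so it lay close to the filter level everywhere. Its call was lost without any Mts24 array or CD34 negative array (adjusted p from 0.059 to 0.17) and under 3 processing alternatives.

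Krt79, the type II keratin of the infundibulum, rose with Mts24, the antigen of the upper follicle. It read 12.82 and 13.11 in the CD34 negative arrays of wild type and K14Snail, and 11.67 and 13.13 in the CD34 positive arrays. In Mts24 negative cells it read 11.55 and 11.42, and in Mts24 positive cells 13.39 and 13.67. Mts24 positive arrays were the highest 2 of the 8 and Mts24 negative ones the lowest 2. The rise with Mts24 was 2.04 ± 0.36 (4.11-fold, adjusted p = 0.0132, 2 of 2 pairs). The call was lost without the wild type Mts24 positive array (1.91, adjusted p = 0.0869), the K14Snail Mts24 negative array (1.64, adjusted p = 0.0887) or the K14Snail Mts24 positive array (2.17, adjusted p = 0.0696).

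For CD34 the positive minus negative difference of Krt79 was -1.15 in wild type and 0.02 in K14Snail cells, and the mean of -0.56 ± 0.36 did not pass (adjusted p = 0.314). Without the K14Snail CD34 positive array the difference was -1.22 with an adjusted p of 0.00812, with wild type alone on the positive side. The CD34 difference lay below the Mts24 difference by 2.60 (-2.60 ± 0.51), just short of the threshold at adjusted p = 0.0509. Among the processing alternatives it passed with no filter on low values (adjusted p = 0.0467) and with median-centred arrays (adjusted p = 0.0398). Krt79 and Krt78 are neighbours on chromosome 15 and differed in opposite directions with Mts24.

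**Figure D3:**
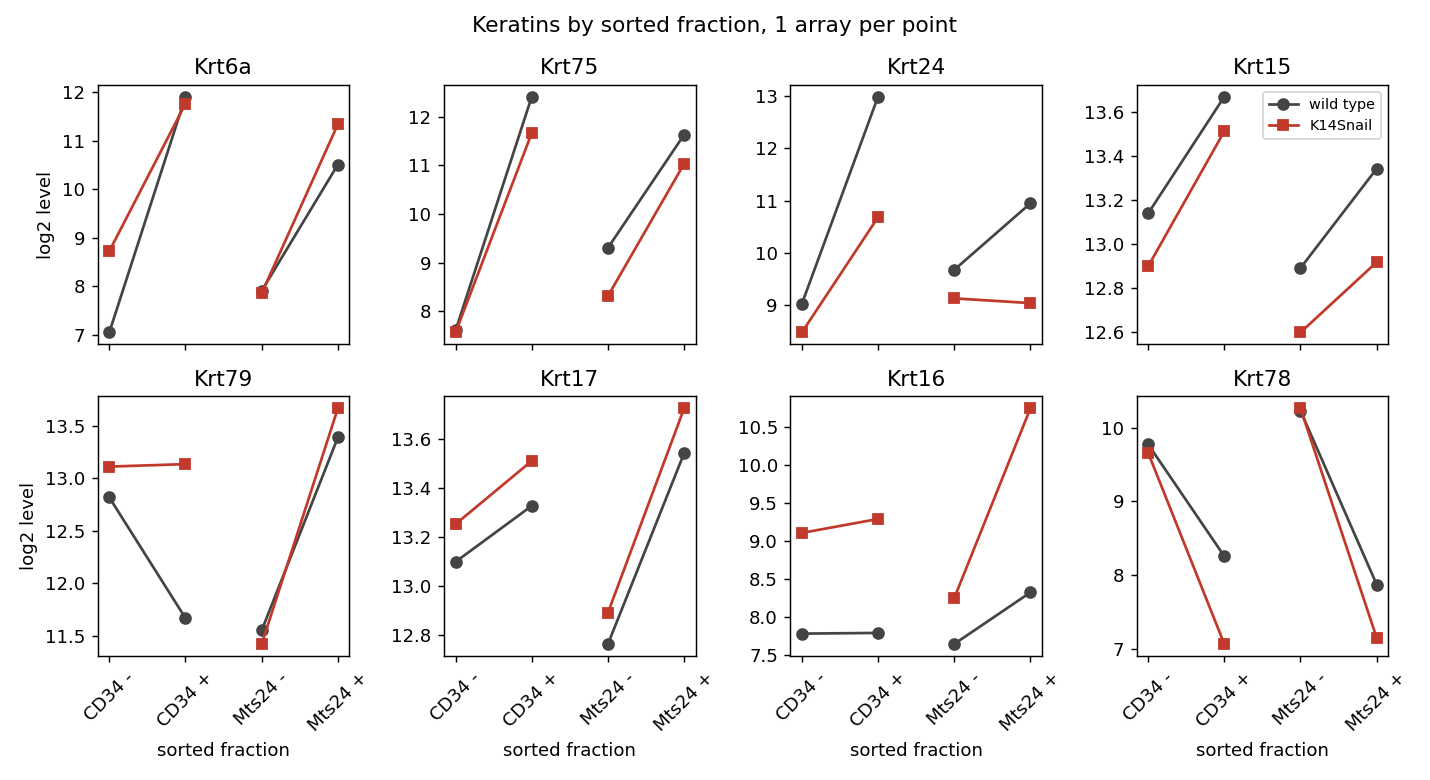
Log2 levels of 8 keratins by sorted fraction, with 1 array per point and lines joining the negative and positive fraction of a marker and genotype (grey, wild type; red, K14Snail); each panel has its own vertical scale. Krt6a and Krt75 rise and Krt78 drops in all 4 pairs, Krt79 rises in both Mts24 pairs, and Krt16 is higher in K14Snail in every fraction.

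Krt24, a type I keratin best known from the corneal epithelium, ranged from 8.48 to 12.99. Wild type and K14Snail arrays read 9.02 and 8.48 in CD34 negative, 12.99 and 10.68 in CD34 positive, 9.67 and 9.13 in Mts24 negative and 10.95 and 9.04 in Mts24 positive cells. The wild type CD34 positive array stood 2.04 above the next, and within every fraction K14Snail was the lower. Krt24 rose with CD34 by 3.09 ± 0.47 (8.49-fold, adjusted p = 0.00678), by 3.97 in wild type and 2.21 in K14Snail cells. The call narrowly missed the threshold without the wild type CD34 negative array (2.57, adjusted p = 0.0502). Mts24 positive minus negative was 1.27 in wild type and -0.09 in K14Snail cells, a mean of 0.59 ± 0.47 that did not pass (adjusted p = 0.403). Krt24 was the 1 member of the mucosal and corneal group to be tested, and Krt4, Krt12, Krt13 and Krt76 ranged from 5.01 to 7.63 without reaching the filter.

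The basal keratins lay between 12.60 and 13.87 on every array and differed little. Krt5, the type II basal keratin, read 13.84 and 13.77 in CD34 negative, 13.87 and 13.83 in CD34 positive, 13.68 and 13.83 in Mts24 negative and 13.85 and 13.77 in Mts24 positive cells, wild type first. Its whole range was under 0.2, and its 95% intervals ran from -0.19 to 0.27 for CD34, from -0.17 to 0.28 for Mts24 and from -0.17 to 0.15 for genotype. These levels lie near the highest array value, 14.49, and whether the scale compresses differences there was not tested. Krt14, its type I partner and the source of the transgene's promoter, read 13.68 and 13.80 in CD34 negative, 13.33 and 13.56 in CD34 positive, 13.28 and 13.63 in Mts24 negative and 13.64 and 13.72 in Mts24 positive cells. K14Snail was the higher in each fraction and the sets overlapped. Krt14 differed by -0.30 ± 0.10 with CD34 (adjusted p = 0.076) and by 0.23 ± 0.10 with Mts24 (adjusted p = 0.144), neither past the threshold.

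Krt15, a type I keratin of basal cells and of bulge stem cells, was the basal member that sorting moved. It read 13.14 and 12.90 in CD34 negative and 13.67 and 13.51 in CD34 positive cells of wild type and K14Snail, and 12.89 and 12.60 in Mts24 negative and 13.34 and 12.92 in Mts24 positive cells. The CD34 positive arrays were the highest 2, and K14Snail was lower than wild type in each fraction. Krt15 was 0.57 ± 0.09 higher with CD34 (1.49-fold, adjusted p = 0.00863) and 0.39 ± 0.09 higher with Mts24 (1.31-fold, adjusted p = 0.0336). Without the wild type or the K14Snail CD34 negative array the CD34 call was lost (0.55 and 0.60, adjusted p = 0.068 and 0.0574). The Mts24 call was lost without any Mts24 or CD34 negative array (0.29 to 0.48, adjusted p from 0.0613 to 0.18), with no filter on low values (adjusted p = 0.0514) and after quantile normalization (adjusted p = 0.109).

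Set directly against each other, the CD34 positive and Mts24 positive fractions differed in 1 keratin, with 13.1% of all genes called. Krt15 was 0.46 ± 0.09 higher in CD34 positive cells (1.38-fold, adjusted p = 0.0324), but the call was lost without each of the 8 arrays in turn (0.36 to 0.56, adjusted p from 0.0551 to 0.163). Krt24 was 1.84 ± 0.47 higher in CD34 positive cells (adjusted p = 0.0599), and Krt23 was lower by 1.57 (-1.57 ± 0.39, adjusted p = 0.0536). Both passed with the pool as a random block, at adjusted p = 0.0465 and 0.0472. In this comparison the marker, the antibody, the magnetic kit and the mouse pools cannot be told apart.

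Of the 5 tested keratins of differentiating epidermis, 2 fell with CD34 and 1 with Mts24, where 13.4% and 13.5% of all genes tested did. All 5 differences were negative for either marker, and their median was -0.76 and -0.65, against -0.03 and 0.02 over all genes. Krt78, a type II keratin of the suprabasal layers, read 9.78 and 9.66 in CD34 negative, 8.25 and 7.06 in CD34 positive, 10.23 and 10.27 in Mts24 negative and 7.87 and 7.14 in Mts24 positive cells, wild type first. All negative arrays exceeded all positive ones. Krt78 fell by 2.06 with CD34 (-2.06 ± 0.30, 4.17-fold lower, adjusted p = 0.00556) and by 2.74 with Mts24 (-2.74 ± 0.30, 6.69-fold lower, adjusted p = 0.0036), calls that held in all 8 processing alternatives and without each array. Without either whole Mts24 pool, which leaves 1 residual degree of freedom, the Mts24 call was lost, as was that of every other gene. The Mts24 difference was then -3.12 without the wild type pool and -2.36 without the K14Snail pool. The K14Snail positive levels of Krt78 lie under 7.70, where the size is uncertain.

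Krt1, the type II keratin made on leaving the basal layer, read 13.67 and 13.68 in CD34 negative, 12.58 and 11.07 in CD34 positive, 13.77 and 13.77 in Mts24 negative and 12.34 and 12.55 in Mts24 positive cells. The 4 negative arrays lay within 0.10 of each other and the positive ones spread over 1.50. Krt1 fell with CD34 by 1.85 (-1.85 ± 0.41, 3.61-fold lower, adjusted p = 0.0238). That call was lost without the wild type CD34 negative array (-2.07, adjusted p = 0.0839) or the K14Snail CD34 negative array (-1.63, adjusted p = 0.143). The Mts24 difference of -1.33 ± 0.41 did not pass (adjusted p = 0.0649) but did without either CD34 positive array (-1.33, adjusted p = 0.00122).

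Krt10, the type I partner of Krt1, read 13.92 and 13.77 in CD34 negative, 13.63 and 12.99 in CD34 positive, 13.94 and 13.99 in Mts24 negative and 13.62 and 13.32 in Mts24 positive cells. Its order over the arrays was close to that of Krt1, with K14Snail CD34 positive lowest in both. The differences of -0.54 ± 0.17 with CD34 (adjusted p = 0.0635) and -0.50 ± 0.17 with Mts24 (adjusted p = 0.08) did not pass. They did without the wild type CD34 positive array (-0.79 and -0.50, adjusted p = 0.0175 and 0.0273). Krt77 differed by -0.76 ± 0.24 and -0.65 ± 0.24 (adjusted p = 0.0724 and 0.105), and Krt80 by -0.31 ± 0.16 and -0.29 ± 0.16 (adjusted p = 0.221 and 0.234).

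Krt2 and Krt9, further suprabasal keratins, did not reach the filter. Krt2, a late differentiation keratin, had the widest range of the 27 untested members: it read 6.23 and 7.27 in CD34 negative, 6.09 and 5.94 in CD34 positive, 6.31 and 7.08 in Mts24 negative and 6.07 and 5.82 in Mts24 positive cells. The 2 K14Snail negative fractions were its highest arrays, with 1.04 and 0.77 over wild type, and all values lay under 7.70.

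T cell markers moved with the same sorting. All 8 tested of 9 on the array were lower in both positive fractions (median differences -1.96 and -2.93), with a mean level of 9.23 to 9.88 in the negative and 7.18 to 7.86 in the positive arrays. Of 13 myeloid and Langerhans markers 11 were tested, and 1 fell with CD34 and 4 with Mts24, where 13.4% and 13.5% of all genes tested did. The mean level of all 13 was 8.69 to 9.22 in negative arrays, 7.39 and 7.34 in wild type and 8.67 and 8.61 in K14Snail positive arrays. For Mts24 all 11 tested cell cycle genes lay above the negative fraction (median 1.48), and 2 of them passed (Cdk1 and Mcm2), where 12.8% of all genes were called higher. The mean level of the cell cycle genes was 8.38 and 8.88 in the Mts24 negative and 9.64 and 10.05 in the Mts24 positive arrays of wild type and K14Snail. Between the same arrays Krt6a, Krt75, Krt79, Krt16, Krt17, Krt15, Krt42 and Krt7 rose. For CD34 the median difference of the cell cycle genes was 0.01 and 0 of the 11 passed, but the genotypes went opposite ways. From CD34 negative to positive cells their mean level went from 9.34 to 8.42 in wild type and from 9.39 to 10.26 in K14Snail. The part of these cells and states in the keratin differences between fractions was not tested. Of genes that anchor, cross-link or bind keratin filaments, 18 were on the array and 16 were tested. Of these, 7 were lower with CD34 and 7 with Mts24, where 13.4% and 13.5% of all genes tested were lower, and 0 were higher. With the pool as a fixed block 6 of the 7 CD34 calls and 3 of the 7 Mts24 calls passed, those of Hrnr (CD34) and of Dsp, Jup, Pkp1 and Pof1b (Mts24) being lost. Among those that passed with it were Evpl (-0.87 ± 0.08 in both, adjusted p = 0.00139 and 0.00275) and Ppl (-0.86 ± 0.11 and -0.65 ± 0.11, adjusted p = 0.00321 and 0.0106), the plakins envoplakin and periplakin of the cornified envelope, and Eppk1, the keratin cross-linker epiplakin (-0.73 ± 0.16 and -1.34 ± 0.16, adjusted p = 0.0221 and 0.00451).

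Of 10 tested transcription factors known to act on keratin genes, 1 rose and 4 fell with each marker. Over all genes tested, 13.4% rose and 13.4% fell with CD34, and 12.8% rose and 13.5% fell with Mts24. Hoxc13, a regulator of hair keratins, rose by 2.60 ± 0.19 with CD34 (adjusted p = 0.000608) and by 0.95 ± 0.19 with Mts24 (adjusted p = 0.018). Grhl3, a factor of terminal epidermal differentiation, was lower by 1.64 with CD34 (-1.64 ± 0.13, adjusted p = 0.00083) and by 0.79 with Mts24 (-0.79 ± 0.13, adjusted p = 0.0107). Gata3, which acts in the inner root sheath, differed by -1.24 ± 0.14 and -0.87 ± 0.14 (adjusted p = 0.00263 and 0.0109), and Foxn1, the nude gene, by -1.29 ± 0.25 and -1.46 ± 0.25 (adjusted p = 0.0142 and 0.0121).

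Of the 3 tested inner root sheath keratins 2 rose with CD34, where 13.4% of all genes tested did. All 3 (Krt25, Krt71 and Krt73) met the filter only through the K14Snail CD34 positive and K14Snail Mts24 positive arrays, their highest. The filter thus favoured higher values of these genes in positive and in K14Snail cells. Krt25, a type I member, read 6.55 and 6.79 in CD34 negative, 7.17 and 8.47 in CD34 positive, 6.82 and 7.08 in Mts24 negative and 6.60 and 7.88 in Mts24 positive cells. Krt71, its type II counterpart, read 7.01 and 7.34, 7.65 and 8.79, 7.24 and 7.16, and 7.31 and 8.13 in the same order. For both genes the K14Snail CD34 positive array was the highest and the K14Snail Mts24 positive array the next. Krt25 was 1.15 ± 0.31 higher with CD34 (2.22-fold, adjusted p = 0.0451) and Krt71 1.05 ± 0.28 (2.07-fold, adjusted p = 0.0439).

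Both calls depended on single arrays. Without the K14Snail CD34 positive array the differences were 0.80 and 0.66 (adjusted p = 0.183 and 0.166). Krt25 was also lost without either CD34 negative array (1.51 and 0.79, adjusted p = 0.0649 and 0.237) or any Mts24 array (1.15, adjusted p from 0.0532 to 0.0561), and Krt71 without either CD34 negative array (1.20 and 0.90, adjusted p = 0.124 and 0.215) or either Mts24 positive array (1.05, adjusted p = 0.074). With the pool as a fixed block their adjusted p-values were 0.0884 and 0.073. Krt25 was further lost after quantile normalization (1.08, adjusted p = 0.057) and Krt71 with the pool as a random block (adjusted p = 0.0519). Krt73, also type II, read 7.24 and 8.43 in CD34 positive and 7.43 and 8.12 in Mts24 positive cells and 7.37 to 7.57 in the negative fractions, and passed for neither marker. The other 5 members, Krt26, Krt27, Krt28, Krt72 and Krt74, ranged from 5.47 to 7.60 and were not tested.

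Simple epithelial keratins, which line glands and internal epithelia and also mark Merkel cells, had 3 of 6 members tested (Krt7, Krt8, Krt23), and 1 call, of Krt7 with Mts24. Krt8, the type II partner of Krt18, read 8.52 and 8.91 in CD34 negative, 8.89 and 9.95 in CD34 positive, 8.80 and 8.90 in Mts24 negative and 9.17 and 9.28 in Mts24 positive cells. K14Snail CD34 positive stood 0.67 above the next array. The difference with CD34, 0.71 ± 0.24, missed the threshold (adjusted p = 0.0856), though with K14Snail alone on the positive side it was 1.14 (adjusted p = 0.00511). Krt18 read 7.12 and 7.20, 7.37 and 7.30, 7.08 and 7.12, and 7.45 and 7.44 in the same order and was not tested. Of 12 further Merkel cell markers on the array 0 reached the filter, the highest value being 7.50 and the mean level 6.41 to 6.64.

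Krt19, a type I keratin often used to mark the bulge, lay between 6.51 and 6.73 on all 8 arrays, under the filter, with differences of -0.05 to 0.04 between positive and negative fractions. Krt7, a ductal and glandular keratin, read 7.54 and 7.66 in CD34 negative, 7.48 and 7.59 in CD34 positive, 7.51 and 7.56 in Mts24 negative and 7.75 and 7.97 in Mts24 positive cells. The Mts24 positive arrays were its highest 2, and the rise of 0.32 ± 0.08 (1.25-fold, adjusted p = 0.0377) was lost without any Mts24 or CD34 negative array (0.26 to 0.39, adjusted p from 0.0736 to 0.231) and under 5 processing alternatives. Krt7 met the filter only through the Mts24 positive arrays, which favoured such a rise. Krt23 ranged from 8.65 in K14Snail CD34 positive to 11.67 in wild type Mts24 negative cells and passed for neither marker against its negative fraction.

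Hair shaft keratins were hardly detected. Of 14 members 12 did not reach the filter, ranging from 5.61 to 7.77, and 11 of these 12 varied by under 1 over the arrays. Krt86 was the exception, at 7.59 in wild type CD34 positive and 6.37 to 6.86 in the other 7 arrays. The 2 tested, Krt33b (8.44 to 8.88) and Krt87 (7.64 to 7.97), passed in no comparison. Nor did Krt90 (7.49 to 7.77), a type II gene beside Krt75, while Krt20 (5.29 to 5.67), Krt222 (5.89 to 6.34) and the suprabasal Krt9 (5.84 to 6.13) stayed under the filter.

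No difference of a keratin between K14Snail and wild type passed the threshold. Krt16 came nearest: it was 1.46 ± 0.28 higher in K14Snail (2.76-fold, higher in 4 of 4 pairs, adjusted p = 0.0924), with a 95% interval from 0.78 to 2.14. With the pool as a random block, whose correlation was estimated as negative (-0.175), Krt16 alone among the keratins passed (adjusted p = 0.0455). A negative correlation has no reading as a shared pool and shrinks the error of genotype differences. In that setting 2.05% of all genes passed for genotype, against 0.382% in the main fit. By fraction Krt16 was 1.32 higher in negative and 1.50 in positive cells of the CD34 sort, and 0.60 and 2.42 higher in those of the Mts24 sort. Krt6b was 0.86, 0.40, 0.37 and 2.51 higher in the same order (mean 1.04 ± 0.37, adjusted p = 0.211), and Krt6a differed by 1.68, -0.14, -0.05 and 0.83 (mean 0.58 ± 0.31, adjusted p = 0.335). Krt17 differed by 0.13 to 0.18 in the 4 fractions (0.16 ± 0.05, adjusted p = 0.196).

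Krt24 was the member most below wild type, at -0.55, -2.31, -0.55 and -1.91 (mean -1.33 ± 0.34, adjusted p = 0.14). Krt75 was lower in 4 of 4 pairs (-0.59 ± 0.15, adjusted p = 0.144), as was Krt15 (-0.28 ± 0.07, adjusted p = 0.13), and Krt14 was higher in 4 of 4 (0.19 ± 0.07, adjusted p = 0.211). In all, 13 of the 25 keratins had the same sign in all 4 pairs, 8 of them positive (Krt6b, Krt7, Krt8, Krt14, Krt16, Krt17, Krt25, Krt73), where 31.6% of all genes did. For Krt73 alone the K14Snail arrays (7.45 to 8.43) and the wild type arrays (7.24 to 7.43) did not overlap, as held for 2.89% of all genes tested, and the difference of 0.53 ± 0.19 did not pass (adjusted p = 0.217). Krt25 and Krt73 met the filter only through K14Snail arrays, which favoured their positive signs and this separation.

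**Figure D4:**
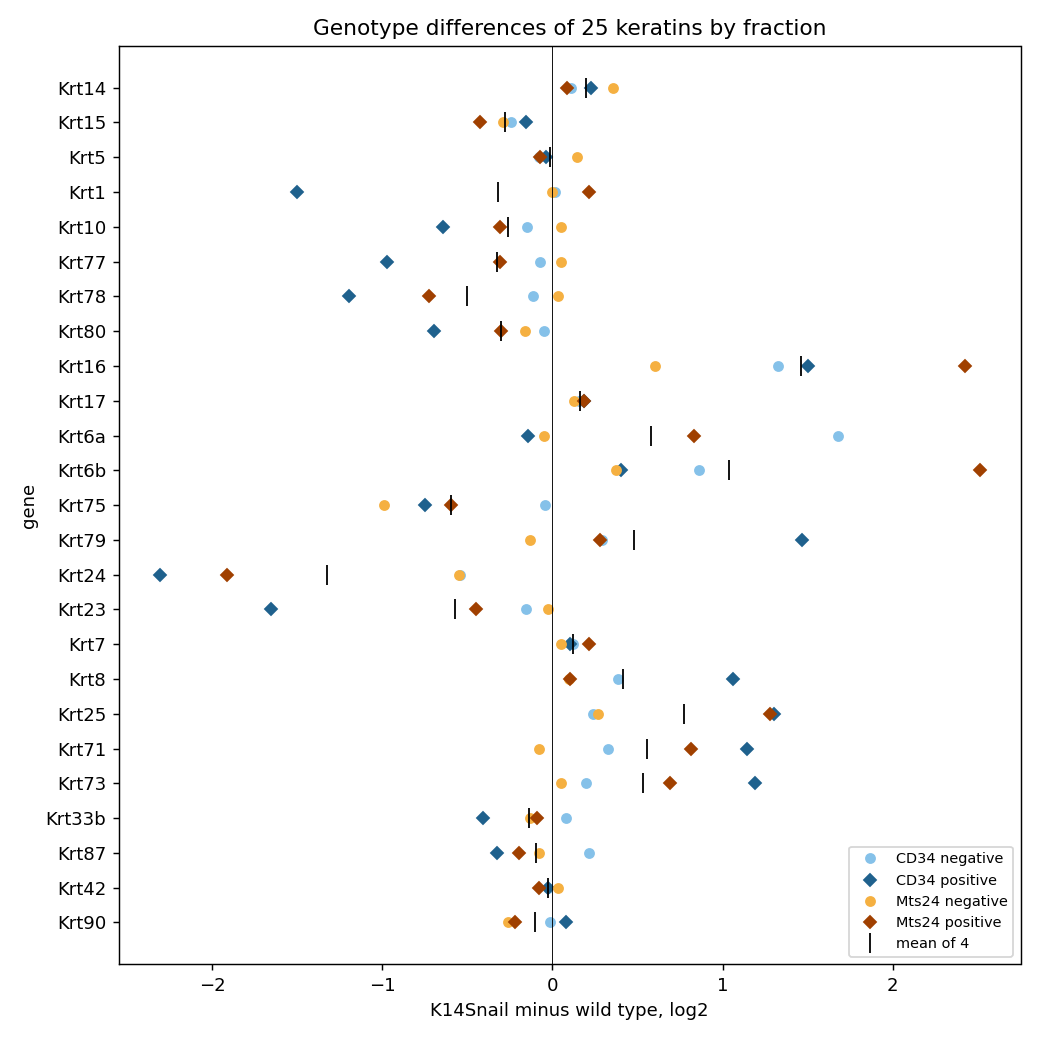
K14Snail minus wild type log2 difference of the 25 tested keratins in each of the 4 fractions (points; 1 array per genotype and fraction) and their mean (bar), ordered by gene group. The CD34 positive pair lies farthest from 0 for the suprabasal keratins, Krt23, Krt24, Krt71 and Krt79, and the Mts24 positive pair for Krt6b (2.51) and Krt16 (2.42).

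Most of the larger genotype differences lay in the CD34 positive pair, where each side is 1 array and no test is possible. There 10 of the 25 keratins differed by at least 1, while 4.94% of all genes did. Krt25, Krt71 and Krt73 were among the 25 only through the K14Snail positive arrays, which favoured their part in this count. Lower in K14Snail were Krt24 (-2.31), Krt23 (-1.65), Krt1 (-1.50) and Krt78 (-1.19), and higher were Krt16 (1.50), Krt79 (1.47), Krt25 (1.30), Krt73 (1.19), Krt71 (1.14) and Krt8 (1.06). In the Mts24 positive pair 4 did (Krt6b, Krt16 and Krt25 higher, Krt24 lower), with 1.91% of all genes. The CD34 negative pair had 2 (Krt16 and Krt6a, both higher, with 0.858% of all genes) and the Mts24 negative pair 0 (0.737%). The other 3 tested suprabasal keratins were at -0.97 (Krt77), -0.70 (Krt80) and -0.64 (Krt10) in CD34 positive cells, and of the untested ones Krt2 was at -0.15 and Krt9 at 0.29.

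Those 2 CD34 positive arrays also differed in markers of other cells and states. The mean of 11 cell cycle genes was 8.42 in wild type and 10.26 in K14Snail, the mean of 13 sebaceous markers 9.85 and 8.08, and the mean of 13 myeloid markers 7.39 and 8.67. In the CD34 negative pair these means were 9.34 and 9.39, 9.46 and 8.00, and 9.05 and 8.69. The sebaceous difference was thus not particular to the CD34 positive pair. The part of these markers in the keratin differences was not tested.

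Whether the positive minus negative difference changed with genotype was tested over both markers, and 0 of the 25 keratins passed limma's test, with 0% of all genes called. Krt24 had the lowest value, -1.56 ± 0.17 (adjusted p = 0.121), its differences being 3.97 and 1.27 in wild type and 2.21 and -0.09 in K14Snail cells. Krt25 had the highest, 1.04 ± 0.12 (adjusted p = 0.121), with 0.62 and -0.21 in wild type and 1.68 and 0.80 in K14Snail. Its passing the filter only through the K14Snail positive arrays favoured such a value. Krt78, at -0.92 ± 0.19, had an adjusted p of 0.233. The fit without either Mts24 positive array, which takes the value from the CD34 sort on 1 residual degree of freedom, called 10 keratins and 6.79% of all genes tested, and the fit without either CD34 positive array called 3 and 1.32% of all genes.

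Keratins that pair in filaments did not all run in parallel over the arrays. As a description over 8 arrays, which share 4 pools and fractions, Krt1 and Krt10 correlated at Pearson r = 0.936 and Spearman rho = 0.929 (r = 0.894 without the 2 arrays farthest from the median of Krt1). Krt8 and Krt18 had r = 0.517 and rho = 0.619 (0.830 without 2 arrays), Krt6a and Krt16 r = 0.482 and rho = 0.500 (0.697), and Krt6b and Krt17 r = 0.536 and rho = 0.357 (-0.06). Krt5 and Krt14 had r = 0.197 and rho = -0.119 (-0.669), over ranges of under 0.2 and of 0.52. Of 2 pairs chosen after their values were seen, Krt6a and Krt75 had r = 0.914 and rho = 0.833 (0.853), and Krt6b and Krt16 had r = 0.893 and rho = 0.738 (0.422).

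On the genome of the RefSeq table (GRCm38.p6) 27 of the members lie in the type I cluster on chromosome 11 and 24 in the type II cluster on chromosome 15. Krt14, Krt16, Krt17 and Krt42 follow each other there, and of these Krt16, Krt17 and Krt42 rose with Mts24 while Krt14 did not pass. Krt6b, Krt6a, Krt5 and Krt71 also follow each other, and their CD34 differences were -0.46, 3.95, 0.04 and 1.05. Neighbouring keratins of similar sequence, such as Krt6a and Krt6b, Krt14, Krt16, Krt17 and Krt42, or Krt33a and Krt33b, can share probe signal, so their values are uncertain in that respect.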

How the data were processed

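RNA of 8 sorted keratinocyte pools, 1 per genotype, marker and fraction, was amplified, labelled with biotin and hybridised to Affymetrix arrays, per the labels' protocols. The authors deposited log2 values from RMA (background correction, normalization between arrays and a summary per probe set), as the submitters' processing notes name it. The version of RMA and the genome build are not given in the sources used here. Values ran from 3.04 to 14.49 and array medians from 7.32 to 7.42. Of 28874 probe sets 21789 have 1 gene symbol, 1621 several and 5464 none. Only the first were used, with the highest mean per gene.

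Fits used limma 3.58.1 under R 4.3.3, on 10720 genes, those with at least 2 arrays at 7.70 or above. The main model held the 4 fractions and genotype (3 residual and 2.753 prior degrees of freedom); a genotype by positive fraction term gave the interaction. The pool (genotype by marker) was left out and tried as a random and as a fixed block. It was taken to join the fractions of a genotype and marker because pool sizes match, which the labels do not state. P-values were adjusted by Benjamini-Hochberg with a threshold of 0.05; errors are limma's moderated standard errors. With 1 array per group the number of arrays limits the precision. The fit was tested on simulated data.

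The members, gene lists, named genes (partner pairs, 13 well-known keratins and every keratin called) and alternatives were chosen with earlier results of these data known. Alternatives were the pool blocks, the filter, quantile normalization, median centring, the mean of probe sets, a trended robust fit and leaving out each array or pool. Lists counted but not described in the results were fibroblast (5 of 10 tested), melanocyte (6 of 8), muscle (2 of 8) and endothelial (0 of 7) markers. Fibroblast markers called were all higher (3 with CD34, 2 with Mts24). Melanocyte markers called were 1 higher with CD34, and 1 higher and 4 lower with Mts24. In those lists 0 passed for genotype, and 0 muscle markers passed for either marker.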

Additional observations from a re-analysis of the deposited data

Results flagged for a closer look

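For 2 keratins the positive minus negative difference differed between the markers by a test of that difference. Krt75 was raised more with CD34 than with Mts24, by 1.93 (adjusted p = 0.03), with pair differences of 4.81 and 4.10 for CD34 and 2.33 and 2.72 for Mts24 in wild type and K14Snail. The negative fractions differed too, at means of 7.58 for CD34 and 8.81 for Mts24, and the positive fractions by 0.71, which did not pass (adjusted p = 0.0973). Krt17 was raised less with CD34, by -0.57 (adjusted p = 0.0477), with pair differences of 0.23 and 0.26 for CD34 and 0.78 and 0.84 for Mts24. Both calls were lost when single arrays were left out and with the pool as a fixed block. Each marker had its own antibody, kit and pools, and these cannot be told apart from the marker.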

How the results depend on the processing

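No paired analysis was possible because every group has a single array numbered 1, so replicate numbers pair nothing; the pool was tried as a block instead. Over the 18 keratins named with full values in tested comparisons, 1814 values under the alternatives kept their side of the threshold. Another 62 came to pass, 134 ceased to pass and 0 changed direction while called. Only a called result can cease to pass, and most of the 108 main results were not called (called were 8 for CD34, 9 for Mts24, 2 for the enrichment difference and 1 between positive fractions). Most of the 1814 thus come from results never called, and the 134 come from the few called ones. With the pool as a fixed block the count of keratins called went from 8 to 6 for CD34 (Krt25 and Krt71 lost) and from 9 to 6 for Mts24 (Krt16, Krt42 and Krt7 lost). The count called by genotype went from 0 to 1 with the pool as a random block, where the share of all genes called went from 0.382% to 2.05%. For the difference between marker enrichments it went from 2 to 1 with the random block and after quantile normalization and to 0 with the fixed block. Between the positive fractions it went from 1 to 3 with the random block and to 2 with no filter on low values and with median-centred arrays. Leaving out 1 array or pool gave a count of 0 throughout for genotype, and counts of 3 to 13 for CD34, 0 to 13 for Mts24, 0 to 3 for the enrichment difference, 0 to 3 between positive fractions and 0 to 10 for the interaction; these fits have 2 or 1 residual degrees of freedom. The fixed pool block gives no value for genotype, the positive fractions or the interaction, pool removals were not run for the interaction, and single pairs of arrays allow no removal. The cause of these changes was not tested. Below 7.70 a difference depends on the array background, which is not measured in these values.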

Other observations

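The keratin-associated proteins, the cross-linking matrix proteins of the hair shaft whose genes lie outside the family, were high on 1 array, wild type CD34 positive cells. Their mean level over 44 genes was 7.76 there and 6.15 to 6.92 in the other 7 arrays. The wild type CD34 positive array was the highest for 36 of the 44 (81.8%), against 14.4% of all genes on the array, and 13 (29.5%) stood at least 1 above every other array, against 0.276%. Krtap8-1 read 9.76 in wild type and 6.99 in K14Snail CD34 positive cells, and Krtap4-16 read 9.28 and 5.16. Of the 14 hair shaft keratins measured, their filament partners, that array was the highest for 4 (28.6%), and 0 stood at least 1 above the others. Among the 4 was Krt86, at 7.59 there and 6.37 to 6.86 elsewhere. Of the 14, 12 lay under the filter, which asks for 2 arrays and so does not by itself hide a rise on 1 array. Krtap4-16, for example, also lay under it, at 4.87 to 6.52 in the other arrays. Krt81, Krt83 and Krt85 were not measured. Whether the hair shaft keratins as a set differ from the Krtap genes in this was not tested. Inner root sheath keratins had their highest array in K14Snail CD34 positive cells instead for 4 of 8 (50.0%, against 14.3% of all genes). Each group is 1 array, so none of this was tested. In the fitted comparisons 12 Krtap genes were tested, and Krtap17-1 alone passed (0.67 higher with CD34).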
